A study of Rattus norvegicus with 28 samples.

Results

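The 10 genes described here encode components and regulators of the connective tissue of the gut wall: Lum, Spp1, Postn, Sparc, Col1a1, Col3a1, Fn1, Serpinh1, Mmp10 and Tcf21. They were taken as every probe set of the array whose platform annotation gave one of these symbols, which found 22 of the 8799 probe sets and 10 of the 4736 genes with a symbol. Of the 22 probe sets, 18 passed the filter on low signal, and every one of the 10 genes had at least 1 probe set above it. The genes were chosen by their role in the matrix and by measured values of these same arrays, the difference of formula and hypoxia minus breast-fed averaged over days. That difference is therefore given below as a description, with no test. Over all genes it passed an adjusted p of 0.05 in limma for 11.4% of the 3185 tested, and nothing is read from the members' own share. Tests are given for changes with age and for differences between days, whose contrasts are orthogonal to the one that chose the genes.

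The study measured transcripts in the terminal ileum, the last stretch of the small intestine, of newborn rat pups. It models necrotizing enterocolitis, in which the bowel of preterm infants becomes inflamed and can die. Formula and hypoxia pups received formula in place of breast milk and hypoxic stress 3 times a day, and 3 of them were killed on each of days 1, 2, 3 and 4 of life. Breast-fed pups were killed on the same days, with 3 pups on each day. The 4 newborn pups of day 0, here called unfed, had not been fed according to the labels of most of them. Each array held total RNA of 1 pup, which made 28 arrays in 9 groups. No pup received formula or hypoxia alone, so that their effects cannot be told apart. Strain, sex and litter are not stated in the labels, and p-values measure only the spread between these arrays.

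The connective tissue below the gut epithelium is laid down by fibroblasts and smooth muscle cells. Fibroblasts secrete collagens that assemble into fibrils, with small proteoglycans such as lumican setting fibril spacing, matricellular proteins such as periostin, osteopontin and Sparc linking fibrils to cell receptors, and fibronectin serving as a scaffold. Chaperones fold procollagen in the endoplasmic reticulum, metalloproteinases cut the finished matrix, and transcription factors such as Tcf21 specify the fibroblasts of visceral organs during development.

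The values are quantile-normalised signals, linear and without a unit, of the probe set with the highest mean for each gene unless another is named. Log2 differences were taken after adding a pseudocount of 8, which makes the change of a dim gene look smaller than it is, and errors of log2 differences are standard errors of the fitted model. Where groups of 3 arrays are said to be separate on single days, or between 2 days, this is a description. The share of all genes with such a separation was not counted, and nothing is read from it. All 9 epithelial markers on the array lay above a median signal of 24, the level of the filter, with the apolipoprotein gene Apoa1 the brightest at a median of 7575. All 10 smooth muscle markers on the array also lay above that level. Of the bone and cartilage markers, 1 of 4 did, namely Col10a1 at a median of 63.9. Of the fat tissue markers 4 of 6 did, with Lep the brightest at a median of 687. Whether the samples were terminal ileum, as labelled, was not tested by these markers. Among the breast-fed arrays, 2 differed from the rest: 69 of 754 abundant probe sets were lost on day 3 replicate 3 and 48 of 757 on day 4 replicate 2, where abundant means a median above 500 on the other arrays and lost means more than 16-fold below that median, against 0 to 2 on each of the others. The regimen difference of each member is also given without them. In whole tissue, fewer cells of a type and less RNA per cell cannot be told apart.

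Lum, Spp1 and Postn, which encode lumican, osteopontin and periostin, had lower signals under formula and hypoxia on each of the 4 days, and Lum and Spp1 also fell with age under that regimen. Lumican is a small leucine-rich proteoglycan that binds collagen fibrils. Osteopontin is a secreted phosphoprotein that binds integrins and CD44, and macrophages and epithelial cells can make it as well as fibroblasts. Periostin is a matricellular protein that binds collagen and fibronectin. The promoters of Lum (chr7:34245456-34245705, plus strand) and Spp1 (chr14:5619805-5620054, minus strand) are shown because these were the members that fell in both tests of age. Each is the 250 bases before the annotated start in RefSeq (GRCr8), in which capitals mark TATAAA.
Lum: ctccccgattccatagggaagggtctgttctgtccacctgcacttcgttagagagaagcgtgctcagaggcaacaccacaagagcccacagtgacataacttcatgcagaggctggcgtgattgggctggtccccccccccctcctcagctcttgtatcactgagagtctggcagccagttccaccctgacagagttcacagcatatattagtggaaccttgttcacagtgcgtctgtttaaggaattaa
Spp1: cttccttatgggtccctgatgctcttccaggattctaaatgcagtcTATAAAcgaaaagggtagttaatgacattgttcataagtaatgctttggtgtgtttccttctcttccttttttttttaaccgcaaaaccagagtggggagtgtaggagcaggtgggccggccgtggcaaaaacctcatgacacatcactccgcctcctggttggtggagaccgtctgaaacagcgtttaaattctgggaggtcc
The letters TATAAA, searched on both strands, stand at bases 47 to 52 of the Spp1 stretch and nowhere in that of Lum. They occur in 12.9% of 33469 rat promoters of that length. The motifs searched here and below were chosen after the sequences had been seen, and a match is a description of the letters.

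Lum had signals of 160.4, 305 and 261 (day 1), 115, 136 and 96.2 (day 2), 169, 121 and 82.6 (day 3) and 58.6, 85.7 and 112 (day 4) in formula and hypoxia pups. In breast-fed pups it had 896, 180.5 and 562 (day 1), 448, 550.4 and 556 (day 2), 299, 451 and 225 (day 3) and 236, 340.5 and 376 (day 4). The 4 unfed newborns had 278, 665, 415 and 200.4. All 12 formula and hypoxia arrays lay below the breast-fed mean of their day, as they did for 2.83% of the genes tested, and the regimens did not overlap on days 2, 3 and 4. On day 1 they overlapped, through breast-fed replicate 2. The mean over days was 142 ± 73.7 under formula and hypoxia and 427 ± 199 in breast-fed pups (SD, n = 12 each), a log2 difference of -1.54 ± 0.22. By day the log2 difference was -0.92 ± 0.45, -2.10 ± 0.45, -1.33 ± 0.45 and -1.81 ± 0.45 on days 1 to 4. Without the 2 breast-fed arrays that stood apart it was -1.56 on day 3 and -1.75 on day 4.

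Spp1 had signals of 97.7, 87.4 and 70.7 (day 1), 28.9, 26.5 and 31.2 (day 2), 25.6, 21.1 and 19.4 (day 3) and 13.3, 12.5 and 34.2 (day 4) in formula and hypoxia pups. In breast-fed pups the values were 291, 112 and 199 (day 1), 59, 181 and 94.5 (day 2), 72.1, 77.5 and 70 (day 3) and 51.8, 64.3 and 182 (day 4). Unfed newborns had 125, 203, 420.1 and 174. The regimens did not overlap on any of the 4 days, and formula and hypoxia was the lower on each. The same held for 0.44% of the genes tested. Several formula and hypoxia arrays of days 3 and 4 lay below the filter level of 24, and no detection calls accompany the values used here. The log2 difference between the regimens was -1.48 ± 0.22 over days, and -1.07, -1.57, -1.44 and -1.83 on days 1 to 4, with -1.47 on day 3 and -2.01 on day 4 once the 2 arrays that stood apart were left out.

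Postn varied most between pups of the same group among these 3 genes. Its signals were 38.3, 130 and 158 (day 1), 195, 62.2 and 40.9 (day 2), 151, 62.9 and 73.9 (day 3) and 28.1, 85.1 and 67.6 (day 4) in formula and hypoxia pups. Breast-fed pups had 444, 127 and 216 (day 1), 146, 276 and 256 (day 2), 199, 131 and 338 (day 3) and 250.4, 204 and 313 (day 4). Unfed newborns had 122, 154, 106 and 59.7, values near those under formula and hypoxia. The regimens were separate on day 4 alone, although all 12 formula and hypoxia arrays lay below the breast-fed mean of their day. The log2 difference was -1.44 ± 0.27 over days, and -1.39 ± 0.29 without the 2 arrays that stood apart.

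**Figure D1:**
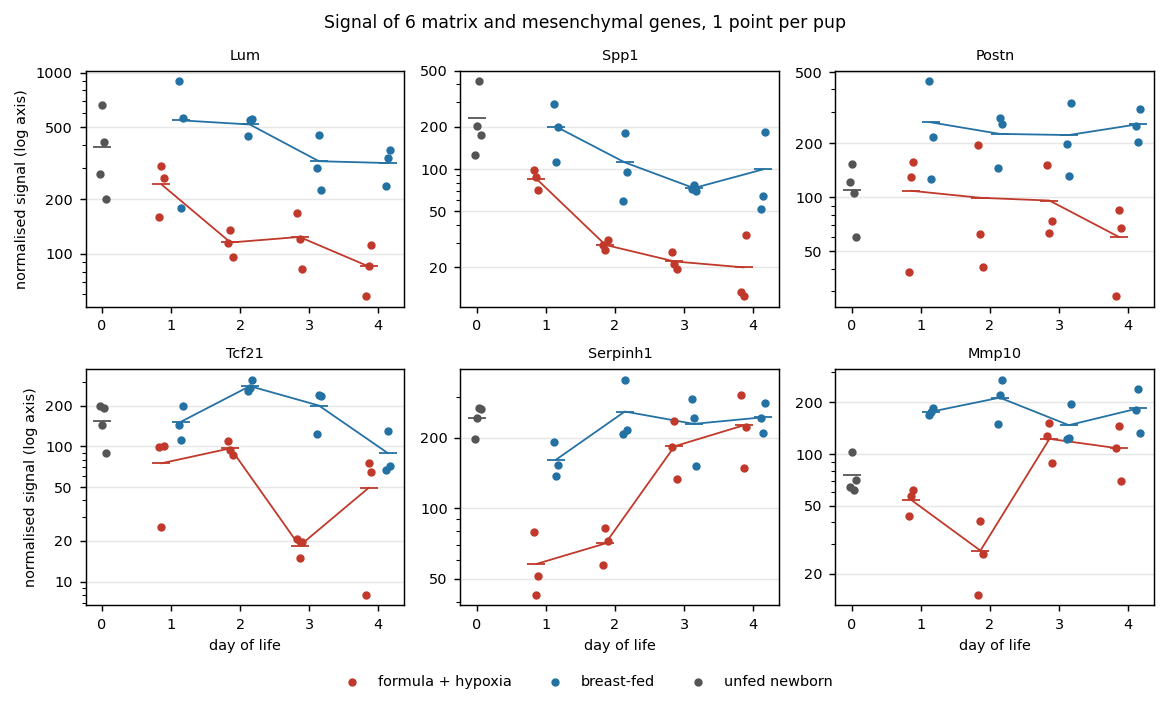
Normalised signal (log axis) of Lum, Spp1, Postn, Tcf21, Serpinh1 and Mmp10 by day of life. Each point is 1 pup, short bars are group means, and lines join the means of formula and hypoxia pups (red) and breast-fed pups (blue), with unfed newborns in grey at day 0. Spp1 under formula and hypoxia lies between 12.5 and 97.7 and below the breast-fed pups of the same day on each of the 4 days, while Serpinh1 and Mmp10 lie apart on days 1 and 2 and overlap on days 3 and 4. These separations are a description, and nothing is read from them.

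With age, Lum and Spp1 fell under formula and hypoxia. Between day 1 and day 4 under that regimen, 3 of the 10 genes passed an adjusted p of 0.05 in limma, 1 higher and 2 lower, against 13.4% of the 3185 genes tested. Spp1 changed by -1.81 ± 0.43 (log2, adjusted p = 0.00721 by limma), with every day 4 pup below every day 1 pup. Lum changed by -1.41 ± 0.45 (adjusted p = 0.0358 by limma), again without overlap between the 2 days. In breast-fed pups none of the 10 genes passed between the same days, where 0.314% of the genes tested did by limma and 541 genes had an unadjusted p under 0.05. Spp1 there changed by -1.06 (95% interval -1.94 to -0.18, adjusted p = 0.222) and Lum by -0.53 (95% interval -1.44 to 0.39, adjusted p = 0.596). The difference between these age changes did not pass for either gene, with an adjusted p of 0.854 for Spp1 and 0.845 for Lum. Postn changed by -0.69 ± 0.54 under formula and hypoxia and by 0.12 ± 0.54 in breast-fed pups, and neither change passed (adjusted p = 0.444 and 0.95).

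The fall of Lum with age depended on single arrays. Its adjusted p was 0.118 or 0.0947 without formula and hypoxia day 1 replicate 2 or 3, 0.177 or 0.0756 without day 4 replicate 1 or 2 of that regimen, 0.113 with the deposited scaling and 0.071 with the accession run, a possible batch of 19 and 9 arrays, as a term. Spp1 kept its call in each of the 39 alternatives run.

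Against unfed newborns, the day 4 pups of both regimens, averaged with equal weight, had 4 of the 10 genes past the threshold on their brightest probe sets, 1 higher and 3 lower, where 18.3% of the genes tested passed. Other probe sets of Sparc and Col1a1 are given below. This comparison shares its day 4 arrays with the one just given. Spp1 was lower by a log2 change of -2.12 ± 0.34 (adjusted p = 0.000165 by limma) and Lum by -1.08 ± 0.35 (adjusted p = 0.034 by limma). The day 4 mean of each regimen against unfed newborns, given without a test because it shares arrays with the contrast that chose the genes, was -3.03 under formula and hypoxia and -1.21 in breast-fed pups for Spp1. For Lum it was -1.99 under formula and hypoxia and -0.18 in breast-fed pups. For Postn it was -0.83 ± 0.50 under formula and hypoxia and 1.20 ± 0.50 in breast-fed pups. The mean of both regimens for Postn was 0.19 ± 0.43. The call for Lum was lost with the deposited scaling (adjusted p = 0.116) and without formula and hypoxia day 4 replicate 1 (0.0811), breast-fed day 4 replicate 1 (0.0729), or unfed replicate 2 (0.125) or 3 (0.1). The day 1 mean of both regimens did not pass against unfed newborns for any of these 3 genes, with an adjusted p of 0.983 for Lum, 0.619 for Spp1 and 0.877 for Postn by limma.

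Tcf21, a basic helix-loop-helix transcription factor of visceral fibroblast precursors, showed the widest gap between the regimens on day 3. Signals under formula and hypoxia were 98.8, 25.4 and 101 (day 1), 109, 94.5 and 87.1 (day 2), 20.6, 14.9 and 19.7 (day 3) and 8.01, 75.8 and 64.2 (day 4). Breast-fed pups had 144, 112 and 200.1 (day 1), 257, 271 and 309.9 (day 2), 123, 242 and 237 (day 3) and 67.2, 129 and 71.4 (day 4). Unfed newborns had 198, 143, 192 and 88.8. The regimens did not overlap on days 1, 2 and 3. On day 4 one formula and hypoxia pup lay within the breast-fed range, and replicate 1, at 8.01, lay below the filter level. The log2 difference was -1.63 ± 0.24 over days, with -1.09, -1.46, -2.93 and -1.02 on days 1 to 4, and -2.78 on day 3 and -0.75 on day 4 without the 2 arrays that stood apart. The F test for a change of this value over the 4 days had an adjusted p of 0.574 by limma.

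Day 4 pups of both regimens had less Tcf21 than unfed newborns, by a log2 change of -1.26 ± 0.38 (adjusted p = 0.0219 by limma), with -1.77 under formula and hypoxia and -0.74 in breast-fed pups. That call was lost with the deposited scaling (adjusted p = 0.068) and without formula and hypoxia day 4 replicate 1 (0.0605), unfed replicate 1 (0.0809) or unfed replicate 3 (0.0815). A second Tcf21 probe set lay below the filter, with a mean signal of 12.9, and gave a log2 difference of -0.44 between the regimens. By day it gave -0.70, -0.91, -0.23 and 0.07 on days 1 to 4, so that its widest gap was on day 2.

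As a description, Serpinh1 and Mmp10 were separate between the regimens on days 1 and 2, with formula and hypoxia the lower, and overlapped on days 3 and 4. The F test for a difference between days did not pass for Serpinh1 (adjusted p = 0.21 by limma). It passed for Mmp10 (adjusted p = 0.047 by limma), a call that held in 6 of 38 alternatives. Serpinh1 encodes HSP47, the endoplasmic reticulum chaperone that binds procollagen. Its promoter (chr1:163062977-163063226, minus strand, RefSeq, GRCr8) is shown because it holds a match, in capitals, to the heat shock element, searched on both strands.
Serpinh1: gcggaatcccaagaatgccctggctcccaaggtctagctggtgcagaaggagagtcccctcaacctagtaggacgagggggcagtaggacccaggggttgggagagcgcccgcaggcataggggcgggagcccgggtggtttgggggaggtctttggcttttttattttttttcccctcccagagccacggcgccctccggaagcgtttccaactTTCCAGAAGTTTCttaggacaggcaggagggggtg
The match runs from 35 to 23 bases before the start, and 0.663% of rat promoters of that length hold one. The other 6 members with a promoter in the table hold none. The promoters of Col1a1, Col3a1 and Fn1 were not searched.

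Serpinh1 had signals of 79.3, 42.8 and 51.6 (day 1), 57.3, 82.5 and 72.8 (day 2), 183, 236 and 133 (day 3) and 306, 149 and 223 (day 4) under formula and hypoxia. Breast-fed pups had 192, 138 and 153 (day 1), 207, 353 and 217 (day 2), 293, 243 and 152 (day 3) and 244, 209 and 281 (day 4). Unfed newborns had 197, 243, 267 and 265. On days 1 and 2 every formula and hypoxia pup lay below every breast-fed pup and every unfed newborn, and on days 3 and 4 the regimens overlapped. The log2 difference between the regimens was -1.38 ± 0.29, -1.73 ± 0.29, -0.29 ± 0.29 and -0.16 ± 0.29 on days 1 to 4. Without the 2 breast-fed arrays that stood apart it was -0.55 on day 3 and -0.26 on day 4.

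Under formula and hypoxia Serpinh1 rose by 1.81 ± 0.29 between day 1 and day 4 (log2, adjusted p = 0.000786 by limma), a call kept in each of the 39 alternatives. In breast-fed pups the change was 0.58 (95% interval -0.02 to 1.19, adjusted p = 0.31). The difference between these age changes, 1.23 (95% interval 0.37 to 2.08), did not pass over the 3185 genes (adjusted p = 0.396 by limma), nor did the F test over days (F = 7.19, adjusted p = 0.21). Serpinh1 was also the 1 gene of the 3185, or 0.0314%, that differed between day 1 of both regimens and unfed newborns, where 257 genes had an unadjusted p under 0.05. The change was -1.27 ± 0.23 (adjusted p = 0.0361 by limma), made up of -1.96 under formula and hypoxia and -0.58 in breast-fed pups. The call held in 20 of 39 alternatives. Its adjusted p reached 0.208 with the replicate number as a block, 0.114 with the accession run as a term and 0.278 without unfed replicate 3. Unfed replicates 2, 3 and 4 are in the second run, and of the day 1 arrays only breast-fed replicate 2 is. Run and this comparison can therefore hardly be told apart. Within the first run 1 unfed array is left, and the change there was -0.92. The call just missed the threshold with the deposited scaling (0.0501), a pseudocount of 32 (0.0518) and no filter on low values (0.0505). Leaving out formula and hypoxia day 1 replicate 2 or 3, day 2 replicate 2 or 3, day 3 replicate 1 or day 4 replicate 3, breast-fed day 1 replicate 2 or 3, day 3 replicate 2 or day 4 replicate 1, or unfed replicate 1 or 4 also ended it, at adjusted p between 0.0508 and 0.131.

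Mmp10 encodes stromelysin-2, a secreted metalloproteinase that cuts proteoglycans, fibronectin and other matrix proteins, and in human gut it is made by epithelial cells at wounds as well as by other cells. Its promoter (chr8:12974457-12974706, plus strand, RefSeq, GRCr8) is shown because it holds matches, in capitals, to both TATAAA and the AP-1 letters TGANTCA, each searched on both strands.
Mmp10: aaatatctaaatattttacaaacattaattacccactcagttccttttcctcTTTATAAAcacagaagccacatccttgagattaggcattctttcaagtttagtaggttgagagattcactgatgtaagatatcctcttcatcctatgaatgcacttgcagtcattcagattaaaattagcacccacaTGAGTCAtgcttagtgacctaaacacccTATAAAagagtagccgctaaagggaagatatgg
TATAAA lies 33 to 28 bases before the start and TGAGTCA 61 to 55 bases before it. An overlapping pair of TATA matches, one on each strand, stands at bases 53 to 60. Among rat promoters of that length, 6.34% hold TGANTCA.

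Mmp10 had signals of 43.7, 56.6 and 61.3 (day 1), 15.1, 40.8 and 26 (day 2), 127, 152 and 88.8 (day 3) and 108, 146 and 69.7 (day 4) under formula and hypoxia. Breast-fed pups had 168, 176 and 185 (day 1), 149, 220.4 and 270.3 (day 2), 123, 124 and 195 (day 3) and 180.5, 241 and 132 (day 4). Unfed newborns had 64.6, 103, 61.7 and 70.9. Formula and hypoxia pups of day 2 were the lowest of all 9 groups, and the regimens were separate on days 1 and 2 and overlapped on days 3 and 4. The log2 difference was -1.58, -2.68, -0.25 and -0.75 on days 1 to 4 (standard error 0.31 each), and -0.04 on day 3 and -0.54 on day 4 without the 2 arrays that stood apart.

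The F test of whether the log2 difference was the same on the 4 days passed for Mmp10 (F = 12.2, adjusted p = 0.047 by limma), where 0.0942% of the genes tested passed and 236 had an unadjusted p under 0.05. The other genes that passed were Cd1d1 and Fbp1. The difference on day 4 minus that on day 1 was 0.84 (95% interval -0.05 to 1.73), which did not pass (adjusted p = 0.735 by limma). The call of the F test held in 6 of 38 alternatives, with adjusted p between 0.022 and 0.224. It was lost with the deposited scaling (0.128), a common median (0.224), a pseudocount of 2 (0.0603) or 32 (0.0965), no filter (0.0563), 1 test per probe set (0.0587), the run as a term (0.0835) and the replicate block (0.0924). Of the single arrays left out, it survived the loss of formula and hypoxia day 3 replicate 3 or day 4 replicate 3, or of unfed replicate 1 or 2, and was lost without any one of the others. In the opposite direction to Lum, Spp1 and Tcf21, Mmp10 was higher on day 4 of both regimens than in unfed newborns, by 0.82 ± 0.24 (log2, adjusted p = 0.0191 by limma), with 0.45 under formula and hypoxia and 1.20 in breast-fed pups. That call was lost without formula and hypoxia day 4 replicate 2 (adjusted p = 0.0522), unfed replicate 1 (0.0645) or unfed replicate 3 (0.0748). The rise of Mmp10 under formula and hypoxia between day 1 and day 4, 0.86 ± 0.30, had an adjusted p of 0.0605.

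**Figure D2:**
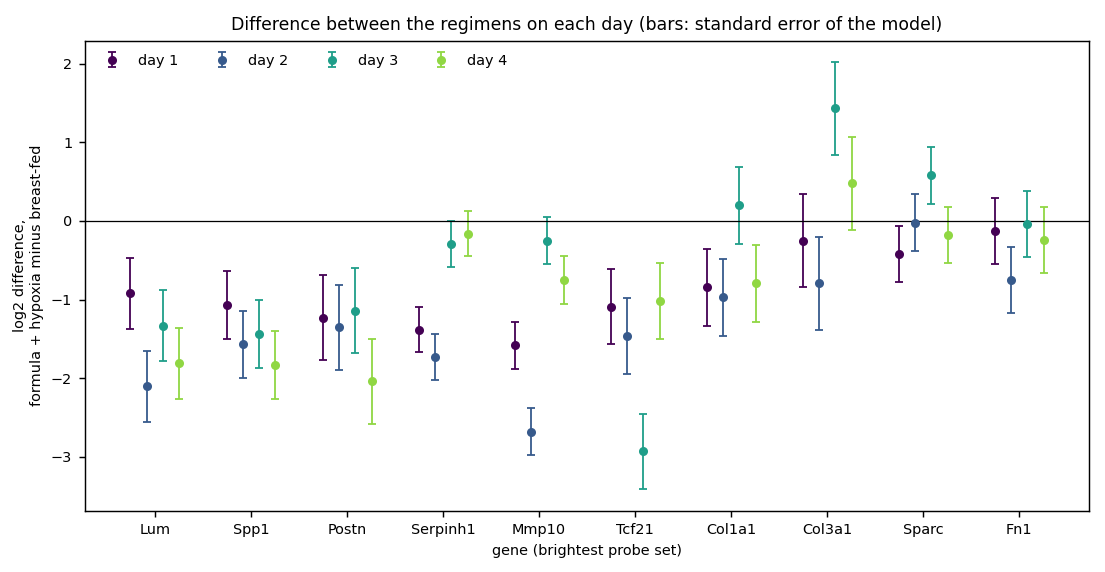
Log2 difference of formula and hypoxia minus breast-fed for the 10 genes on days 1 to 4, with standard errors of the fitted model. Lum, Spp1, Postn and Tcf21 lie below 0 on every day, Serpinh1 and Mmp10 lie far below 0 on days 1 and 2 and nearer to it on days 3 and 4, and Col3a1 lies on both sides.

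On their brightest probe sets, the fibrillar collagens, Sparc and Fn1 differed less between the regimens than the genes above, and their probe sets did not give 1 answer. Col1a1 and Col3a1 encode the main chains of type I and type III collagen. The brightest Col1a1 probe set, M27207mRNA_s_at, ranged from 313 to 1599 under formula and hypoxia with a median of 899, against 541 to 2580.2 with a median of 1023 in breast-fed pups and 788, 1409.8, 1143 and 795 in unfed newborns. The regimens overlapped widely, and the log2 difference was -0.60 ± 0.25. The other probe sets of Col1a1 gave -0.41, -0.11 and 0.22. The highest of these, Z78279_g_at, had 22 on breast-fed day 3 replicate 3 and 52.1 on breast-fed day 4 replicate 2, which is 17.4-fold and 7.38-fold below the median of the other arrays. Without this pair of arrays it gave -0.37, and the 4 probe sets lay between -0.60 and -0.27.

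The brightest Col3a1 probe set, X70369_s_at, ranged from 335 to 1416 under formula and hypoxia (median 527), from 87.3 to 1221 in breast-fed pups (median 589) and from 266 to 539 in unfed newborns. Its 2 lowest values, 87.3 and 131, were again on the 2 breast-fed arrays that stood apart. The log2 difference was 0.22 ± 0.30 with all arrays and -0.14 ± 0.23 without them, and the other probe set, M21354_s_at, gave -0.30 with and -0.25 without them. No direction is therefore given for Col3a1. Formula and hypoxia day 3 replicate 1 was the highest of the 12 arrays of that regimen for Col1a1 (1599), for both Col3a1 probe sets (1416 and 825) and for Fn1 (894), while for Lum, Postn and Spp1 it was the highest of its day but not of the regimen (169, 151 and 25.6).

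Sparc encodes a secreted glycoprotein that binds collagen and is made by fibroblasts and endothelium. Its brightest probe set, rc_AA892248_at, had a mean of 3776, and the log2 difference between the regimens was -0.01 ± 0.19 (-0.20 ± 0.14 without the 2 arrays that stood apart). The other probe sets, rc_AA891204_s_at, rc_AA946313_s_at and Y13714_at, had means of 167, 249.6 and 474 and gave -0.98, -0.70 and -0.51. Without the 2 arrays that stood apart these gave -0.86, -0.62 and -0.43. Among pups of the same group, rc_AA891204_s_at and Y13714_at varied together (Pearson r = 0.82 over the 28 deviations from group means), while rc_AA892248_at varied against them (r = -0.38 and -0.46, or -0.24 and -0.32 without the 2 arrays that stood apart). The probe sets of Sparc thus differed in level, in the size of the regimen difference and in their variation between pups, and which of them measures the transcript was not tested. Y13714_at had 182, 225 and 255 under formula and hypoxia on day 1 and 666, 532 and 480.4 on day 4, against 323, 519 and 373 on day 1 and 686, 632 and 519.9 on day 4 in breast-fed pups. With each probe set tested on its own, Y13714_at rose between these days under formula and hypoxia by 1.31 ± 0.31 (adjusted p = 0.00991 by limma over 5244 probe sets), where rc_AA892248_at had -0.60 ± 0.36 (adjusted p = 0.319). On day 4 of both regimens Y13714_at was above unfed newborns by 0.78 ± 0.25 (adjusted p = 0.0325 by limma). In that comparison rc_AA891204_s_at (0.77), rc_AA946313_s_at (0.39) and rc_AA892248_at (-0.34) did not pass.

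Fibronectin, encoded by Fn1, is the scaffold on which collagen fibrils assemble. Its brightest probe set, X05834_at, ranged from 178 to 894 under formula and hypoxia (median 295), from 233 to 624 in breast-fed pups (median 422) and from 204 to 295 in unfed newborns. The log2 difference between the regimens was -0.29 ± 0.21 (-0.23 ± 0.22 without the 2 arrays that stood apart) and the regimens overlapped. On day 4 Fn1 was above the unfed level by 0.90 ± 0.33 (95% interval 0.22 to 1.58), which missed the threshold at an adjusted p of 0.0586 by limma. Of the other Fn1 probe sets, 1 passed the filter, U82612cds_at with a mean of 30.8, and 3 lay below it with means between 7.05 and 20.3. For Col1a1, the probe set rc_AI231472_s_at was higher on day 4 of both regimens than in unfed newborns by 1.58 ± 0.39 (adjusted p = 0.00726 by limma over 5244 probe sets), where the brightest one gave 0.39 ± 0.39 (adjusted p = 0.527).

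**Figure D3:**
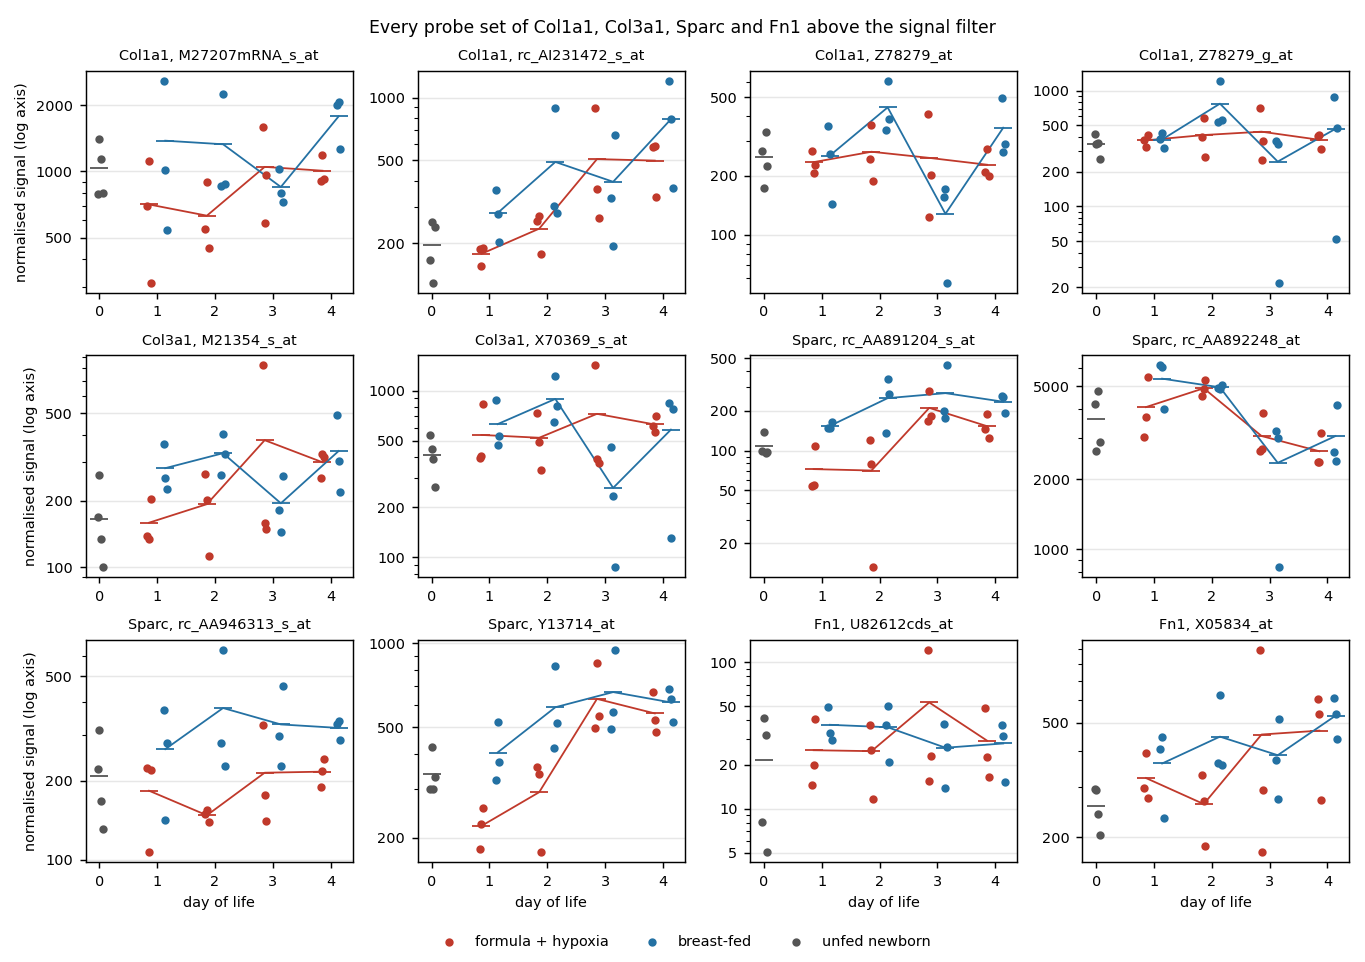
Normalised signal (log axis) of each probe set of Col1a1, Col3a1, Sparc and Fn1 above the filter, by day of life. Points are pups, short bars and lines are group means, formula and hypoxia in red, breast-fed in blue and unfed in grey. The low breast-fed points of Z78279_g_at (22 and 52.1) and X70369_s_at (87.3 and 131) are the 2 arrays that stood apart, and rc_AA892248_at of Sparc has lower group means on days 3 and 4 than on days 1 and 2 in both regimens, where Y13714_at has higher ones.

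**Figure D4:**
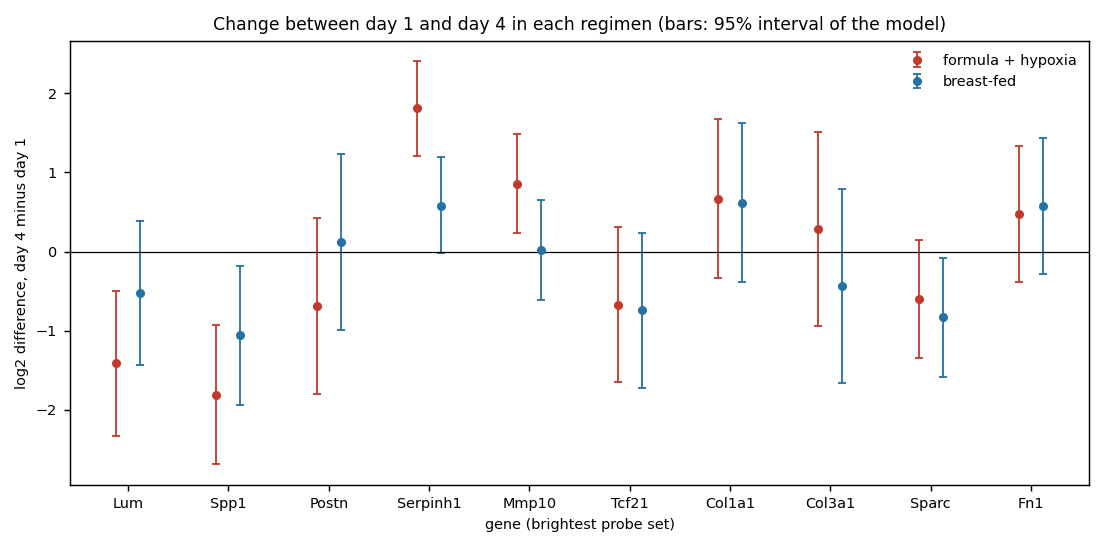
Log2 difference of day 4 minus day 1 for the 10 genes under formula and hypoxia (red) and in breast-fed pups (blue), with 95% intervals of the fitted model. Under formula and hypoxia Lum (-1.41) and Spp1 (-1.81) lie below 0 and Serpinh1 (1.81) above it. The intervals of the regimens overlap for each gene except Serpinh1 (1.21 to 2.41 under formula and hypoxia, -0.02 to 1.19 in breast-fed pups).

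Among pups of the same group, deviations from the group means of Lum had r = 0.55 with Postn over 28 arrays and 0.53 with Spp1, while Spp1 and Postn had r = 0.28. The Col3a1 probe set M21354_s_at had r = 0.65 with Postn and 0.74 with the brightest Fn1 probe set. The brightest Col3a1 probe set, X70369_s_at, had r = 0.31 with the same Fn1 probe set, and 0.51 without the 2 arrays that stood apart. The correlation with the mean of the other members was -0.13 for Mmp10, -0.02 for Tcf21, 0.06 for Sparc, 0.10 for Serpinh1 and 0.20 for Fn1. For the remaining members it ran from 0.44 (Spp1) to 0.63 (Lum). The points share the array and its normalisation, and these values are descriptions. The genes outside the 10 whose pattern was most like their mean standardised level over the 28 arrays were Ddx50 (r = 0.78), Hnrnpa2b1 (0.76), Serpinb9 (0.76), Plk4 (0.75) and Cd24 (0.75). After the group means were removed they were Pias3 (0.83), Mmp14 (0.80), Cald1 (0.79), Mat2a (0.77) and Dync1li2 (0.75).

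The other matrix genes are given as background. The 10 genes were chosen with this same difference known, so no contrast is drawn between them and the others. The lists of matrix genes, with 175 names in all, had 121 on the array and 80 tested, of which 70 were not among the 10. Of these 70, 5 were lower under formula and hypoxia and 4 higher over days at an adjusted p of 0.05 in limma, against 6.75% lower and 4.68% higher among the 3185 genes. An unadjusted p under 0.05 in limma was found for 23 of the 70, and for 852 of the 3185 genes. The median log2 difference of the 70 was -0.01, and that of all genes 0.02. The 5 lower genes were Sdc2, a cell surface proteoglycan (-0.86 ± 0.18, adjusted p = 0.00238), Bmp7, a secreted growth factor (-0.88 ± 0.23, adjusted p = 0.0128), Dcn, which encodes the lumican relative decorin (-0.85 ± 0.28, adjusted p = 0.0438), Thy1, a surface protein of fibroblasts, neurons and thymocytes (-0.80 ± 0.16, adjusted p = 0.0018), and P4ha1, a collagen prolyl hydroxylase (-0.56 ± 0.15, adjusted p = 0.0132).

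The 4 higher genes were Plaur, Plau, Mgp and Fst. Plaur, the urokinase receptor, was higher by 1.09 ± 0.16 (adjusted p = 5.07e-05 by limma), its ligand Plau by 0.61 ± 0.13 (adjusted p = 0.00202), Mgp, an inhibitor of calcification, by 0.89 ± 0.18 (adjusted p = 0.00182), and Fst, which encodes the activin binding protein follistatin, by 0.65 ± 0.20 (adjusted p = 0.0337). Plaur averaged 187 ± 47.1 under formula and hypoxia and 84.9 ± 23.1 in breast-fed pups (SD, n = 12 each). Decorin averaged 1189 ± 797 under formula and hypoxia and 1965 ± 634 in breast-fed pups. Of the 6 collagens tested outside the 10 genes, 0 passed in limma in either direction and 1 had an unadjusted p under 0.05. Of the 6 laminin, elastic fibre and vitronectin genes tested, 0 passed in limma and 2 had an unadjusted p under 0.05.

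**Figure D5:**
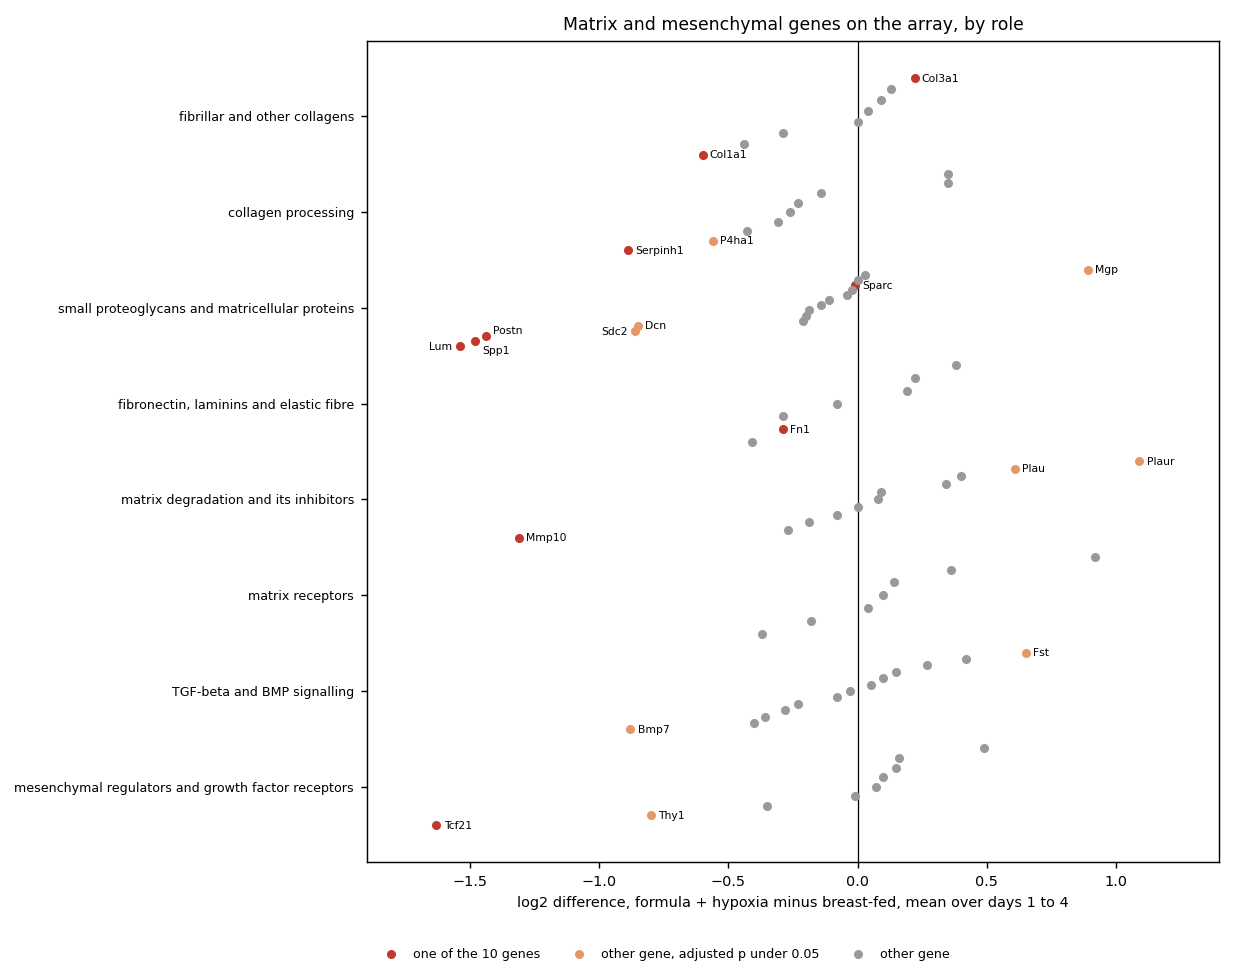
Log2 difference of formula and hypoxia minus breast-fed, averaged over days 1 to 4, for the 80 matrix and mesenchymal genes tested, in 8 lists by role. Red points are the 10 genes described here, orange points other genes with an adjusted p under 0.05 and grey points the rest. Lum, Spp1, Postn, Mmp10 and Tcf21 lie at or below -1.31, lower than each other gene of the lists. The 10 genes were chosen with this difference known, so nothing is read from their place.

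With age under formula and hypoxia, the other matrix genes that passed were higher. Of the 70 genes, 7 were higher and 0 lower on day 4 than on day 1 under that regimen, against 6.62% higher and 6.78% lower among all genes, with a median of 0.25 against 0 for all genes. The 7 were Itgb4, an integrin chain of epithelial hemidesmosomes (3.16 ± 0.61, adjusted p = 0.0022), Pdgfra, a growth factor receptor of fibroblasts (1.36), Sparcl1, a relative of Sparc (1.33), Eln, which encodes elastin (1.26), Col5a1, a fibrillar collagen (1.13), Sdc4, a cell surface proteoglycan (1.09), and Lama3, a laminin chain of the epithelial basement membrane (1.03). Lum and Spp1 thus moved opposite to these 7 genes. In breast-fed pups 0 of the 80 genes passed in limma between the same days, where 0.314% of all genes did. An unadjusted p under 0.05 in limma was found there for 12 of the 70 genes, against 15 under formula and hypoxia. In breast-fed pups the 7 genes changed by 1.47 (Itgb4), 1.00 (Pdgfra), 1.35 (Sparcl1), 0.69 (Eln), 1.24 (Col5a1), 0.46 (Sdc4) and 0.14 (Lama3). The rise is therefore not read as particular to formula and hypoxia. On day 4 of both regimens against unfed newborns, 13 of the 70 genes were higher and 0 lower, where 9.98% of all genes were higher and 8.29% lower. They included each of the 7 just named, at 2.38 for Itgb4, 1.61 for Sparcl1, 1.18 for Sdc4, 1.09 for Pdgfra, 1.01 for Eln, 0.96 for Col5a1 and 0.86 for Lama3. The other 6 were Col1a2, the partner chain of Col1a1 (1.20), Pdgfa, a growth factor (1.13), the gelatinase gene Mmp2 (1.01), Itga1, a chain of a collagen-binding integrin (0.82), Bgn, which encodes the small proteoglycan biglycan (0.75), and Bmp3, of the BMP family (0.70).

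Markers of other cells moved beside these results, and their part in them was not tested. Of all genes tested, 4.68% were higher and 6.75% lower over days under formula and hypoxia. With age under that regimen 6.62% were higher and 6.78% lower. On day 4 of both regimens against unfed newborns 9.98% were higher and 8.29% lower. Of the 10 smooth muscle markers tested, 1 was lower over days under formula and hypoxia (Myl9, -0.50) and 4 were higher there on day 4 than on day 1, namely Des (2.04), Myh11 (1.89), Acta2 (1.57) and Actg2 (1.27). Their summed signal ran from 8760.1 to 20828 under formula and hypoxia, from 11039 to 19595 in breast-fed pups and from 6735 to 11797 in unfed newborns. Of the 10 macrophage and granulocyte markers tested, 2 were higher and 4 lower over days. The summed signal of all 13 on the array ran from 3457 to 8896 under formula and hypoxia, from 2809 to 5797 in breast-fed pups and from 2693 to 3686 in unfed newborns. The marker with the highest mean under formula and hypoxia was Lgals3, which epithelial cells also express, at 3702 ± 1531 under formula and hypoxia and 855 ± 573 in breast-fed pups (SD, n = 12 each). Without Lgals3 the sum of the other 12 markers on the array ran from 1579 to 3037 under formula and hypoxia, from 2560 to 4118 in breast-fed pups and from 1637 to 2763 in unfed newborns. S100a9 (0.71) was the other marker that was higher, and Coro1a (-1.13), Aif1 (-0.99), Cd53 (-0.96) and Ctss (-0.82) were lower. Of the 6 mast cell markers tested, 4 were lower. The sum of all 8 on the array ran from 402 to 1255 under formula and hypoxia, from 1142 to 2125 in breast-fed pups and from 882 to 1754 in unfed newborns. Epithelial markers were higher in 1 of 9 (Cldn3), with sums from 24229 to 42501 under formula and hypoxia, from 22328 to 37086 in breast-fed pups and from 19910.1 to 35273 in unfed newborns. Beside the age results under formula and hypoxia, 3 epithelial markers were higher on day 4 than on day 1 (Krt19, 1.79, Apoa1, 0.95, and Krt8, 0.91), 2 mast cell markers lower (Mcpt1, -1.82, and Cma1, -0.98), and of the macrophage and granulocyte markers 1 was higher (Lgals3, 1.58) and 1 lower (Aif1, -1.39). On day 4 of both regimens against unfed newborns, 5 of 10 smooth muscle markers were higher, of the epithelial markers 5 were higher and 1 lower, of the macrophage and granulocyte markers 1 was higher (Lgals3, 1.77) and 1 lower (Aif1, -1.15), and 1 mast cell marker was lower (Cma1, -0.86). Over days, in limma 0 of 3 endothelial and 0 of 9 neuronal and glial markers passed. The mesothelial marker Wt1, the 1 of its list on the array, lay below the filter at a median of 13.6.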

How the data were processed

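Total RNA of 28 rat terminal ileum samples was measured on 1 Affymetrix-type array each, and groups and replicate numbers come from the titles and descriptions. The deposited values are probe set intensities on a linear scale. From the values, the authors had scaled most arrays to a common trimmed mean, while 2 deviated (109.2 and 209.2). The summary software is not given in the sources used here. Intensities were quantile normalised, 8 was added, and log2 taken. Probe sets above the 40th percentile of mean log2 (signal 24) were kept (5244), and the brightest of each gene was used (3185 genes). The 59 control probe sets were left out. Of the others, 7006 had 1 symbol, 308 several and 1426 none.

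A group-means model over the 28 arrays was fitted with limma 3.58.1 in R 4.3.3 (19 residual degrees of freedom, trended empirical Bayes, Benjamini-Hochberg over all genes, two-sided), and the code was tested on simulated data. The number of arrays limits the precision. The members and lists were chosen with earlier results of these data known. Named genes are the 10 members, of each matrix list the genes past an adjusted p of 0.05 (up to 4 per direction), and the 5 most alike by each correlation. Marker lists covered smooth muscle, macrophages and granulocytes, mast cells, endothelium, epithelium, mesothelium, neurons and glia, fat tissue, and bone and cartilage. In fat tissue 1 of 4 genes was higher under formula and hypoxia (Lpl, 0.46), and in bone and cartilage 0 of 1 passed in limma.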

Additional observations from a re-analysis of the deposited data

Results flagged for a closer look

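The difference between formula and hypoxia and breast-fed pups was not the same on days 1 to 4 for Mmp10, by an F test over the 4 daily differences (adjusted p = 0.047 by limma). The daily log2 differences were -1.58, -2.68, -0.25 and -0.75. The day 4 difference minus that of day 1 was 0.84 (95% interval -0.05 to 1.73, adjusted p = 0.735 by limma). The call held in 6 of 38 alternatives, and with each array left out in turn the adjusted p ran from 0.0244 to 0.17.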

How the results depend on the processing

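Across the alternatives the 10 genes kept the direction of every tested change that had passed, and Spp1 and Serpinh1 kept their calls between day 1 and day 4 under formula and hypoxia, as did Spp1 on day 4 against unfed newborns. The causes of lost calls were not tested. Deposited scaling, in which 2 arrays deviate, ended each call of Lum, that of Tcf21, that of Serpinh1 on day 1 and that of Mmp10 in the F test.

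Counts over all genes moved more. Between day 4 and day 1 in breast-fed pups 10 genes passed, against 149 with the deposited scaling, 19 with 1 test per probe set, 112 with array weights, 2 with the accession run as a term, 3 without the 2 arrays that stood apart, and 2 to 32 with single arrays left out (2 without breast-fed day 1 replicate 3 or day 4 replicate 1, 3 without day 1 replicate 2 or day 4 replicate 2, 16 without day 3 replicate 3 and 32 without day 4 replicate 3). Under formula and hypoxia 427 passed, against 720 with array weights and 150 to 477 with single arrays left out (150 without day 4 replicate 1, 275 without day 1 replicate 1). For day 1 of both regimens against unfed newborns 1 passed, against 0 with the deposited scaling, a pseudocount of 32, no filter, the run as a term or the replicate block, 2 with a common median or 1 test per probe set, 84 with array weights, and 0 to 9 with single arrays left out (9 without unfed replicate 2). Within the first run this comparison rests on 1 unfed array, and no count is given for it. For day 4 of both regimens 582 passed, against 1012 with array weights and 346 to 694 with single arrays left out (346 without unfed replicate 3, 360 without unfed replicate 1). For the change of the regimen difference between days 1 and 4, 5 passed, against 9 with the deposited scaling, 3 with a common median, 20 with array weights, 1 without the 2 arrays, and 1 to 8 with single arrays left out (1 without breast-fed day 1 replicate 1 or day 4 replicate 2, 8 without formula and hypoxia day 1 replicate 3). For the F test 3 passed, against 0 with the deposited scaling, a pseudocount of 2, the run as a term or the replicate block, 1 with a pseudocount of 32, 1 test per probe set or without the 2 arrays, 17 with array weights, and 0 to 5 with single arrays left out (5 without formula and hypoxia day 3 replicate 3). Over days 364 genes differed between the regimens, against 549 with 1 test per probe set, 593 with array weights, 203 with the run as a term, 163 within the first run (days 1 to 3 averaged), and 291 to 399 with single arrays left out. Of the 70 matrix genes outside the 10, 5 were lower, against 8 with array weights, 1 within the first run and 2 where run was a covariate.

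The replicate numbers share only a number: of 84 pairs of same-numbered arrays 16 correlated above 0.1 in their deviations from group means (median 0.01, from -0.34 to 0.29). With the replicate block Serpinh1 on day 1 against unfed newborns had an adjusted p of 0.208 and Mmp10 in the F test 0.0924. All 3 arrays of breast-fed day 4 are in the second run, so that within the first the regimen difference was averaged over days 1 to 3, and the other comparisons that need breast-fed day 4 were not run there. Mmp10 also rose between day 1 and day 4 under formula and hypoxia with array weights (adjusted p = 0.00894 by limma), within the first run (0.0305), without the 2 arrays (0.047) and without formula and hypoxia day 4 replicate 3 (0.0293), and Fn1 passed on day 4 against unfed newborns in 5 alternatives.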
